A study of Mus musculus with 3 samples.

Results

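A small set of germ cells from the fetal ovary of C57BL/6 mice at embryonic day 16.5 still held RNA of an early germ cell programme. These lagging cells, labelled members in the plots, were the 150 of 5363 cells of the E16.5 library with the highest score. The score was the mean natural log value of Rec8, Pou5f1, Utf1, Dppa3, Ccnd1 and Msx1, so these 6 genes were used to choose the cells and count as no finding. The study had 3 libraries, 1 each of E12.5 (4706 cells), E14.5 (9075 cells) and E16.5, of female primordial germ cells sorted for Oct4-EGFP, a reporter of the Pou5f1 gene. No other genotype or treatment was named, and the number of embryos pooled in a library was not stated in any label. The lagging cells were compared with the other 5213 E16.5 cells and with the E14.5 cells. Because each stage was 1 library and the cells were chosen from the same values, no test was made. Levels are unique molecular identifiers (UMIs, each marking 1 captured RNA molecule) summed over a group and scaled to counts per 1000000 UMIs (CPM), with exact Poisson 95% intervals that cover counting error only.

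Primordial germ cells carry a pluripotency programme until they commit to sex. In the fetal ovary, retinoic acid and BMP signals switch on Stra8 and the cells replicate their DNA a last time before meiotic prophase. They then lay down the synaptonemal complex, which joins paired chromosomes, and cut and repair their DNA to recombine. Cells of one ovary enter meiosis over several days, in a wave that runs from front to back.

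The lagging cells had germ cell markers. All 20 markers of the germ cell list were found in them, and the summed level per cell ran from 2999 CPM through a median of 6872 to 13129.9. Summed over the cells, this list stood at 6842 CPM in the lagging cells, 12021 in the other E16.5 cells and 7366 in the E14.5 cells. Pregranulosa markers, which belong to the somatic cells around the germ cells, summed to 42.5 CPM (35.3 to 50.6) in the lagging cells, 34.9 in the other E16.5 cells and 97.6 in the E14.5 cells. Of the 20 pregranulosa markers measured, 6 were at 0 in the lagging cells, Wnt6, Wt1 and Gata4 among them. Of the 14 with 10 or more counts, 3 were at least 2-fold higher than in the other E16.5 cells (21.4%) and 4 lower (28.6%). Over all 12699 genes with 10 or more counts, 19.3% were higher and 15.5% lower. Among the 3, Krt18, a keratin, stood at 12.2 against 1.78 CPM. Markers of blood (7.13, 50.1 and 1.12 CPM in the same order) and red cells (4.42, 78.9 and 11.8 CPM) summed to less than in the other E16.5 cells, where most cells had none and single cells reached 327154 and 267752 CPM. The list medians turned against the deeper E16.5 cells for blood (0.07) and with 300 lagging cells for red cells (7.50, log2 differences). Endothelial markers summed to 38.7, 28.6 and 40.4 CPM, with Cdh5 and Esam at 0 in the lagging cells and Egfl7 4.78-fold higher than in the other E16.5 cells, and interstitial markers to 11.5, 16.6 and 9.36 CPM. The mesonephric and epithelial list was higher in the lagging cells (152 CPM) than in the other E16.5 cells (55.9) and stood at 133 in the E14.5 cells. No lagging cell had UMIs of 4 or more of 10 somatic markers, against 18 other E16.5 cells, called somatic-marker cells here, and 152 E14.5 cells.

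The lagging cells were deep. They held 2944094 UMIs, with 5194 to 37964 per cell and a median of 19764, against medians of 12565 in the other E16.5 cells and 10960.0 in the E14.5 cells. Mitochondrial RNA took 2.57%, 3.13% and 2.36% of UMIs in the 3 groups. A doublet caller marked 1 lagging cell, but it marked 0.178% of all cells and so is taken not to have worked. The E14.5 and E16.5 libraries shared 72 cell barcodes, and 1 lagging cell was among them. The part of depth in choosing the cells was measured by scoring every cell at 5000 UMIs, which chose 124 of the same 150 cells and left out 25 E16.5 cells below that depth.

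The score declined without a gap at the limit. The last 5 cells chosen scored between 0.703 and 0.716, and the next 5 cells between 0.676 and 0.703. All 6 scoring genes were found in 76 of the lagging cells, 5 in 51, 4 in 21 and 3 in 2, whereas 3130 of the other E16.5 cells (60.0%) had none. Dppa3 stood at 599.5 CPM in the lagging cells, 19 in the other E16.5 cells and 426 in the E14.5 cells. The other scoring genes stood at 132 to 235 CPM in the lagging cells, at 5.01 to 9.50 in the other E16.5 cells and at 99.1 to 199.8 in the E14.5 cells. Because the E14.5 cells were not chosen by score, 150 E14.5 cells matched to the lagging cells on score served as another comparison.

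To place each cell between the 2 stages without the scoring genes, early and late gene sets were taken from the E14.5 cells and the other E16.5 cells. The early set had 221 genes at least 4-fold higher in the E14.5 cells, the late set 117 genes at least 4-fold higher in the other E16.5 cells, each at 20 CPM or more in the higher group. The early share is the percentage of a cell's UMIs in both sets that fell on early genes. Early shares of the lagging cells ran from 61.1% through a median of 90.9% to 94.6%. In the other E16.5 cells the lowest, median and highest shares were 4.8%, 24.8% and 97.2%, and in the E14.5 cells 15.2%, 95.3% and 100%. All but 2 of the lagging cells (148) lay above the 95th percentile of the other E16.5 cells, 70.8%, and none reached the E14.5 median, where a count of 0 allows a share of up to 2.0% (3 counts of 150, counting error only). The score-matched E14.5 cells had a median of 96.8% and a lowest value of 88.8%. By this share the lagging cells lay near the E14.5 cells but on their lower side, and their ranges overlapped. The lower side came from the late genes, which summed to 2708 CPM in the lagging cells and 1382 in the E14.5 cells. Early genes summed to 25389 and 23746 CPM. The late sum was below that of the 18 E16.5 somatic-marker cells (3703 CPM). Whether RNA from other E16.5 cells, or a difference between the 2 libraries, lowered the share was not tested.

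**Figure D1:**
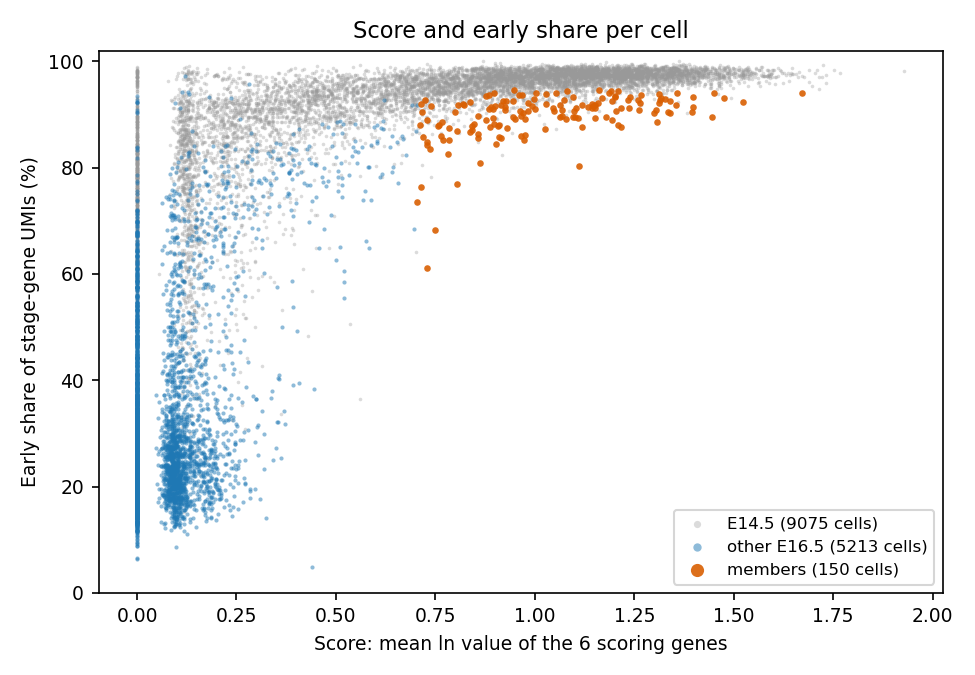
Score (mean natural log value of the 6 scoring genes) against early share (percent of UMIs in the early and late sets) for single cells, coloured by group. The lagging cells have a median early share of 90.9%, between the other E16.5 cells (24.8%) and the E14.5 cells (95.3%).

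The position was not a feature of the lagging cells alone. A share of 83.0% or more, the 5th percentile of the lagging cells, was found in 142 of them, in 73 of the other E16.5 cells (1.40%, exact binomial interval 1.10 to 1.76) and in 7517 E14.5 cells (82.8%). These counts include the somatic-marker cells. In the 18 of the E16.5 library, early genes summed to 34594 CPM and late genes to 3703, so a high share alone does not mark an early germ cell. Down the ranking by score, the median early share was 92.2% in the first 50 cells, 90.8% in the next 50 and 88.0% in cells 101 to 150. It was 78.5% in cells 151 to 300, 33.4% in cells 301 to 600 and 23.8% in the lowest ranks, from 2401 to 5363. The steepest step thus lay beyond the 150 cells, and cells ranked 151 to 300 had a median of 15663 UMIs. Within the 150 cells, the early share had a rank correlation of 0.50 with the score and 0.12 with UMIs per cell, given as a description over cells of 1 library.

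Of 3385 genes at 50 CPM or more in the lagging cells or the other E16.5 cells, 353 (10.4%) were at least 2-fold higher in the lagging cells and 333 (9.84%) at least 2-fold lower. The same cells chose the groups, so these counts are a description. Against the E14.5 cells the counts were far smaller, 27 higher (0.909%) and 6 lower (0.202%) of 2969 genes. Against the score-matched E14.5 cells 26 were higher (0.884%) and 2 lower (0.0680%) of 2942. For scale, the E14.5 cells and the other E16.5 cells differed at 303 genes (9.07%) in each direction, of 3340. Early genes went with the lagging cells almost throughout. Of the 221 early genes, 220 were at least 2-fold higher than in the other E16.5 cells (median log2 difference 2.65), and 219 were within 2-fold of the E14.5 cells (median 0.09). The set was chosen as low in these same other E16.5 cells, and the lagging cells by a score of early genes. The count of 220 is thus in part set by those choices and is no independent evidence.

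Among genes at 100 CPM or more, the largest ratio to the other E16.5 cells was that of Phlda2, an imprinted gene known for limiting placental growth. Over single lagging cells its level ran from 0 through a median of 101 CPM to 1078, and it was found in 112 of the 150. In the other E16.5 cells it was found in 162 of 5213 cells (3.11%). With every cell thinned to 5000 UMIs, which left out 25 other E16.5 cells, it was found in 43.3% and 1.12%, and in none of the 18 somatic-marker cells, of median depth 13189 UMIs, against 3 of them before thinning. Summed, Phlda2 (chr7:143501545-143503145, mm10/GRCm38) stood at 193 CPM (177 to 209) in the lagging cells, 3.11 in the other E16.5 cells and 239.8 in the E14.5 cells. That is 61.9-fold higher than in the other E16.5 cells (52.7 to 72.9) and 0.803 of the E14.5 level. The groups overlapped in single cells, since the highest other E16.5 cell had 839.9 CPM. Phlda2 also divided the lagging cells among themselves, at 282 CPM in ranks 1 to 50, 196 in ranks 51 to 100 and 96.3 in ranks 101 to 150.

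Rhox5, an X-linked homeobox gene of the reproductive cluster, came next. It was found in 149 of the 150 lagging cells, with a median of 482 CPM and a highest value of 1391, and in 1016 of the other E16.5 cells (19.5%). At 5000 UMIs the shares were 90.7% and 8.75%, and none of the 18 somatic-marker cells had a Rhox5 UMI. Summed, Rhox5 (chrX:37754608-37808878) stood at 507 CPM (481 to 533), against 23.1 in the other E16.5 cells and 429.7 in the E14.5 cells, a 21.9-fold difference within the stage (20.4 to 23.6). Other genes with large ratios were Sct, the hormone secretin (109 CPM against 6.07), Gpx1, a glutathione peroxidase (164 against 11.0), Galk1, a galactose kinase (106 against 7.34), and Ifitm2, an interferon-induced membrane protein (529 against 41.6). Tuba1b, an alpha tubulin, stood at 554 CPM against 40.2, Aldoa, a glycolytic aldolase, at 217 against 21.2, and Cenpa, the centromeric histone, at 195 against 21.1. Dppa5a, an RNA-binding pluripotency gene, stood at 693 CPM (663 to 723), 74.5 in the other E16.5 cells and 659.9 in the E14.5 cells. For each of these genes the lagging cells were within 2-fold of the E14.5 cells. In the 18 somatic-marker cells Tuba1b stood at 1197 CPM, above the lagging cells, whereas Sct stood at 7.82 and Dppa5a at 31.3. How far RNA of other cells raised Tuba1b was not tested.

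The promoters of 2 genes are printed because among genes at 100 CPM or more Rhox5 had one of the largest ratios to the other E16.5 cells and Gc, described below, the lowest. Each is the 250 bases before the start in RefSeq on GRCm38.p6, on the gene's own strand, 5′ to 3′, and capitals mark CG dinucleotides, the sites at which mammalian DNA is methylated. Rhox5 lies on the plus strand at chrX:37754358-37754607 and Gc on the minus strand at chr5:89457899-89458148.
Rhox5: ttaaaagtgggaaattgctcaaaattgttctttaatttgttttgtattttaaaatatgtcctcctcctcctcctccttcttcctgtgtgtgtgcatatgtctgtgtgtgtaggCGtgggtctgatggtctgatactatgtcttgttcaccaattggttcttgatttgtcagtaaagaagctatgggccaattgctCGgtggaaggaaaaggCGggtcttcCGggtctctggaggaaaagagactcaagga
Gc: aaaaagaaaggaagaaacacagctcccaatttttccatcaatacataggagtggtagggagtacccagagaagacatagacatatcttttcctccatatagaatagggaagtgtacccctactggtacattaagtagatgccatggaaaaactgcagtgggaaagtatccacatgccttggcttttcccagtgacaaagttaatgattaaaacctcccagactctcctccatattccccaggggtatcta
The printed Rhox5 stretch holds 4 CG dinucleotides and that of Gc 0, against a median of 6.00 over 27025 promoters taken in the same way. Counts from 3' chemistry do not show whether the RNA of these cells begins at the starts used here. The early genes with a promoter in the table (171 of 221) had a median of 12 and the late genes (85 of 117) of 15, so CG content did not separate the sets in the direction of these 2 genes.

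**Figure D2:**
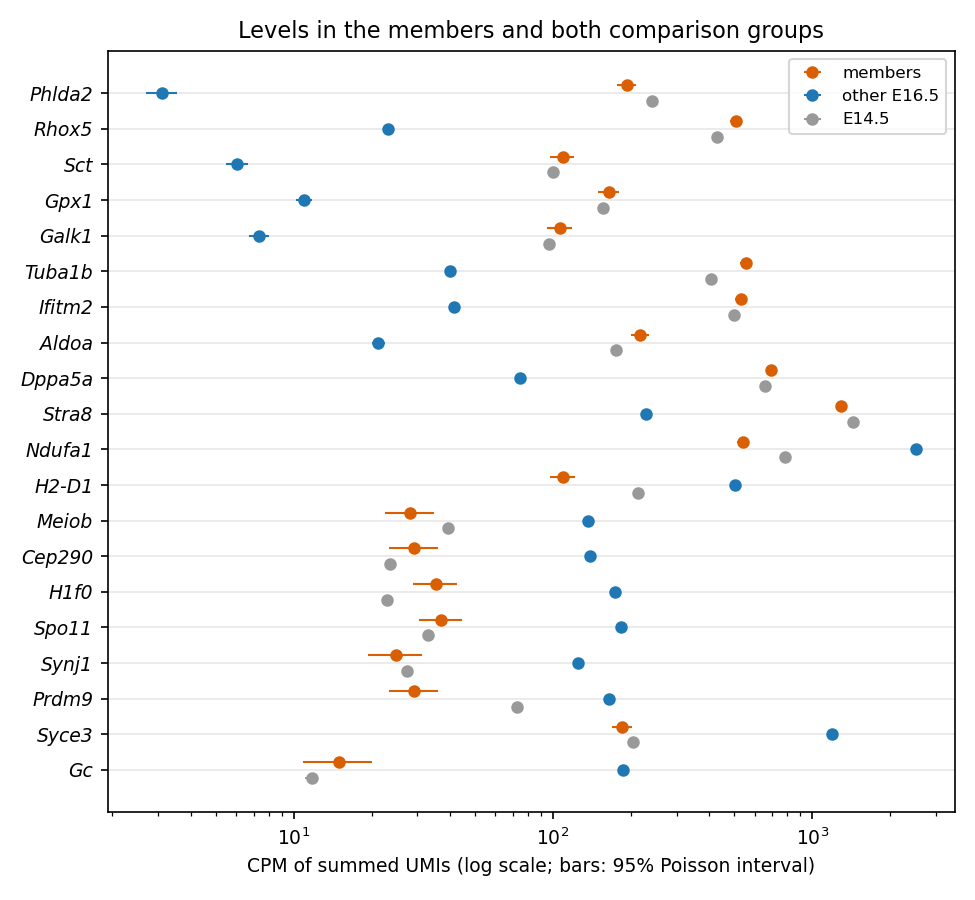
Summed levels (CPM, log axis) of named genes in the lagging cells, the other E16.5 cells and the E14.5 cells, with exact Poisson 95% intervals. Early genes such as Rhox5 (507, 23.1 and 429.7 CPM) lie near the E14.5 level in the lagging cells, and late genes such as Gc (14.9, 187 and 11.8 CPM) are far below the other E16.5 cells.

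Stra8, the gene through which retinoic acid starts meiosis, was high in the lagging cells. Its level ran from 0 through a median of 1299 CPM to 3176 over single cells, and it was found in 148 of them. Summed, Stra8 (chr6:34920163-34939344) stood at 1285 CPM (1244 to 1327) in the lagging cells, 229 in the other E16.5 cells and 1439 in the E14.5 cells, 5.61-fold higher than in the former (5.42 to 5.82) and 0.893 of the latter. In the E12.5 cells it stood at 3.27 CPM. By rank, Stra8 was highest outside the 150 cells, at 1551 CPM in ranks 151 to 300, and was 1224 in ranks 1 to 50 and 124 in the lowest ranks. Zglp1, a BMP-induced factor of the oogenic fate, stood at 89.3, 18.0 and 84.1 CPM in the lagging, other E16.5 and E14.5 cells. The meiotic entry list, which holds Stra8, did not rise as a whole. Of its 16 genes with 10 or more counts, 3 were at least 2-fold higher than in the other E16.5 cells (18.8%). More were lower, 6 of the 16 (37.5%, median log2 difference -0.89), and none differed 2-fold from the E14.5 cells. The retinoic acid and BMP list had 23 genes with 10 or more counts, of which 19 were at least 2-fold higher than in the other E16.5 cells and none lower (median log2 difference 2.31). Over all 12699 genes tested at that depth, 19.3% were higher and 15.5% lower, with a median of -0.07. None of the 23 differed 2-fold from the E14.5 cells, where 4.55% and 3.05% of 12276 genes did. Of that list, Id3, an inhibitor of differentiation that BMP induces, stood at 670.5, 202 and 581 CPM, and Dlx3, a homeobox gene, at 21.1, 0.269 and 10.8 CPM. In the WNT list 9 of 16 genes were higher and none lower (median 1.46), with Sp5, a WNT target, at 30.9, 2.17 and 24.3 CPM. Both lists were drawn up with results of these data known, so neither is independent evidence. The retinoic acid and BMP list also holds Rhox5, described above.

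Pluripotency genes were higher as a list. The cells were chosen on Pou5f1, Utf1 and Dppa3, genes of the same early programme, so this list is no independent evidence. Of 29 genes, 25 were at least 2-fold higher than in the other E16.5 cells and none lower (86.2% higher, against 19.3% of all genes, median 3.16). Against the E14.5 cells 1 was 2-fold higher and none lower (3.45%, against 4.55% of all genes, median 0.33). Sox2, a core pluripotency factor, stood at 51.3 CPM in the lagging cells, 1.26 in the other E16.5 cells and 34.7 in the E14.5 cells. Nanog had 14 UMIs in the lagging cells (4.76 CPM) and stood at 0.0150 and 3.19 CPM in the other groups. Dnd1, an RNA-binding protein that germ cells need to survive, stood at 84.6, 3.38 and 67.4 CPM, and Dmrt1, a regulator of the switch from mitosis to meiosis, at 56.4, 4.93 and 43.3 CPM. Tet1, which oxidises methylated DNA, stood at 16.3, 1.00 and 11.3 CPM. Of the 20 germ cell markers, 8 were at least 2-fold lower than in the other E16.5 cells and 1 higher (median -0.75). Among those within 2-fold, Dazl, an RNA-binding translation regulator, stood at 1093, 924 and 1131 CPM, and Ddx4, a germ cell helicase, at 224, 164 and 206 CPM.

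Among metabolic and cell cycle genes, counts are read against the 19.3% higher and 15.5% lower of all genes. In the glycolysis list 16 of 21 genes were at least 2-fold higher than in the other E16.5 cells and none lower (median 1.69), with Gapdh at 636, 131 and 553 CPM in the lagging, other E16.5 and E14.5 cells, and Ldhb, a lactate dehydrogenase, at 137, 16.1 and 127. In the redox list 14 of 21 were higher (median 2.64), and Gpx4, which repairs oxidised lipids, stood at 529.9, 74.2 and 545 CPM. The oxidative phosphorylation list differed little, with 4 of 32 higher (12.5%), 1 lower and a median of -0.05. In the S phase list 14 of 25 genes were higher and none lower (median 1.19), with Tyms, which makes thymidine for DNA, at 76.4, 9.55 and 55.8 CPM. Its summed level per cell had a median of 2581 CPM in the lagging cells, 1429 in the other E16.5 cells and 2296 in the E14.5 cells. The G2 and mitosis list had 7 of 26 higher (26.9%, median 0.37), near the share of all genes, with medians per cell of 2354, 2079 and 2152 CPM, so its groups lay closer together. Cdkn1a, which holds the cell cycle, stood at 65.6, 5.91 and 44.2 CPM, and Trp53, its activator, at 46.2, 8.94 and 28.7.

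**Figure D3:**
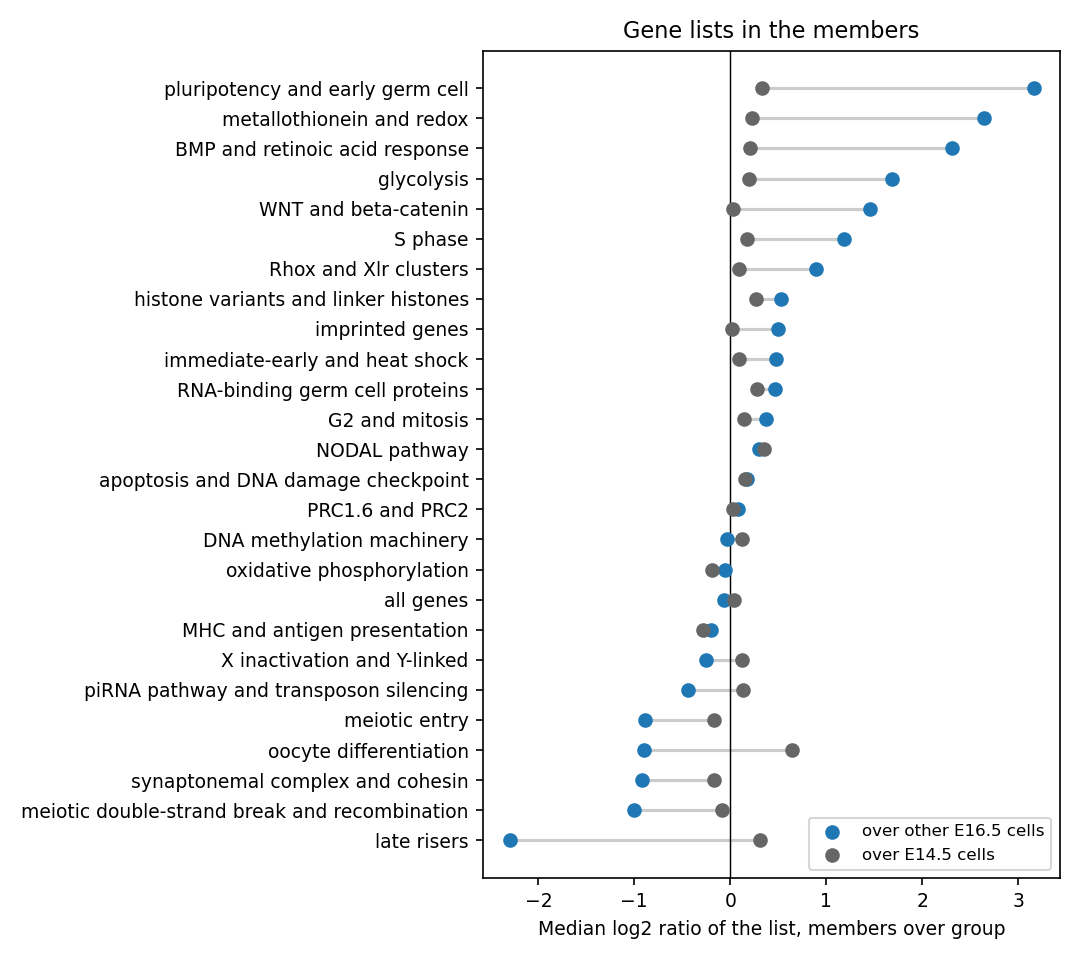
Median log2 difference of each gene list, lagging cells over the other E16.5 cells and over the E14.5 cells, among genes with 10 or more counts. Pluripotency (3.16) and redox (2.64) are highest against the other E16.5 cells, and most lists are near 0 against the E14.5 cells (0.33 and 0.23 for these 2).

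Of the 117 late genes, 108 were at least 2-fold lower than in the other E16.5 cells (median log2 difference -2.13). Over all genes with 10 or more counts, 15.5% were. The late set was chosen as high in these same other E16.5 cells and low in the E14.5 cells, so its counts are in part set by that choice. Against the E14.5 cells 80 late genes were within 2-fold, 33 higher and 4 lower (median 0.50). Over all genes with 10 or more counts, 4.55% were higher and 3.05% lower. Against the score-matched E14.5 cells 73 late genes were higher and none lower (median 1.27). Of all genes at 50 CPM or more, 0.884% were higher and 0.0680% lower in that comparison. The summed level of the late genes was 2708 CPM (2649 to 2769) in the lagging cells, 8233 in the other E16.5 cells, 1382 in the E14.5 cells and 907 in the score-matched cells. Free RNA in a droplet library adds UMIs to cells that do not express a gene. The 18 E16.5 somatic-marker cells summed to 3703 CPM (3471 to 3947), above the lagging cells. Their early genes summed to 34594 CPM (33877 to 35323), also above the lagging cells at 25389. The late sum is not a pure background level, since H1f0, a linker histone of the late set, stood at 438 CPM (361 to 527) in those cells and at 174 in the other E16.5 cells. Free RNA, own RNA and RNA of germ cells in the same droplet were not told apart in the 18 cells. A late gene at or below its level in them is not read as expressed in the lagging cells here, and the part of free RNA was not tested.

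Gc, the vitamin D binding protein, had the lowest ratio to the other E16.5 cells among genes at 100 CPM or more. It was found in 35 of the 150 lagging cells (highest 232 CPM) and in 4102 of the other E16.5 cells (78.7%, median 156 CPM). At 5000 UMIs the shares were 8.0% and 54.4%, and 22.2% in the 18 somatic-marker cells (33.3% before thinning). Summed, Gc (chr5:89417511-89457898) stood at 14.9 CPM (10.9 to 20.1) against 187, 12.5-fold lower, and at 11.8 in the E14.5 cells. The 18 somatic-marker cells stood at 43.0 CPM.

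Synaptonemal complex and cohesin genes were lower as a list, 7 of 15 by at least 2-fold and none higher (median -0.92), against 15.5% lower and 19.3% higher of all genes. Syce3, a central element protein, was found in 142 lagging cells, with a median of 137 CPM and a highest value of 618, against a median of 1184 in the other E16.5 cells. Summed, Syce3 (chr15:89390174-89410503) stood at 184 CPM (169 to 201), 1186 in the other E16.5 cells, 203 in the E14.5 cells and 179.9 in the somatic-marker cells. Sycp1, the transverse filament protein, stood at 584, 1743 and 441 CPM in the lagging, other E16.5 and E14.5 cells, and Sycp3, of the lateral element, at 524, 1757 and 682. Both were above the somatic-marker cells, which stood at 301 and 383 CPM. By rank, Sycp3 was 365 CPM in ranks 1 to 50, 496 in ranks 51 to 100, 723 in ranks 101 to 150 and 1788 in the lowest ranks. Smc1b, the meiotic cohesin subunit, stood at 1432, 3167 and 1609.9 CPM.

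Of 29 genes of double-strand breaks and recombination, 15 were at least 2-fold lower than in the other E16.5 cells and 1 higher (median -1.0). Spo11, which cuts the DNA, stood at 37.0, 183 and 32.9 CPM in the lagging, other E16.5 and E14.5 cells, and Meiob, a repair cofactor, at 28.2, 136 and 39.4. Both stood at 46.9 CPM in the somatic-marker cells. Prdm9, which marks hotspots, was found in 55 lagging cells, with a highest value of 309 CPM. Summed, Prdm9 (chr17:15543072-15564374) stood at 29.2 CPM (23.4 to 36.1), 164 and 72.9, which is 5.63-fold below the other E16.5 cells and 2.5-fold below the E14.5 cells, with 54.7 in the somatic-marker cells. Against the score-matched E14.5 cells, at 24.3 CPM (17.9 to 32.3), the intervals overlapped. Dmc1, a strand exchange recombinase, stood at 92.0, 190.0 and 123 CPM. The oocyte list had 5 of 12 genes lower than in the other E16.5 cells and 3 higher (41.7% and 25%, against 15.5% and 19.3% of all genes, median -0.90). Against the E14.5 cells 4 of 9 genes were higher and none lower (44.4%, against 4.55% of all genes, median 0.64). Genes with few counts in both groups were not tested, so one scarce at E14.5 entered only if higher in the lagging cells. No direction of the list is therefore read from this count. Among its 4 genes of highest level, only Lhx8 was 2-fold higher (6.45 against 2.58 CPM, 19 UMIs in the lagging cells). Sohlh2, Kit and Figla stood at 1.27, 0.923 and 0.652 of the E14.5 level. Figla, an oocyte transcription factor, stood at 77.1, 223 and 118 CPM, with 46.9 in the somatic-marker cells. Of 15 genes listed as late risers 14 were lower than in the other E16.5 cells (median -2.30). That list was drawn up with results of these data known and is no independent evidence. H2-D1, a class I histocompatibility gene whose reads can be shared with near-identical relatives, stood at 109, 504 and 212 CPM. Its list was mixed, with 3 of 10 genes higher than in the other E16.5 cells and 4 lower (30.0% and 40.0%, median -0.20). Ndufa1, a respiratory chain subunit, stood at 539, 2505 and 783 CPM.

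Few genes set the lagging cells apart from both groups. Of 3459 genes at 50 CPM or more in any group, 7 were at least 2-fold above both (0.202%) and 3 at least 2-fold below both (0.0867%). Hist1h2ap, a replication-dependent H2A histone, came first by the size of its ratios among those at 100 CPM or more. Over single lagging cells it ran from 0 through a median of 336 CPM to 4173, with an upper quartile of 1807. The medians were 128 CPM in the other E16.5 cells (highest 3835) and 0 in the E14.5 cells (highest 738). Summed, Hist1h2ap stood at 999.6 CPM (964 to 1036), 210.0 and 56.1, which is 4.76-fold and 17.8-fold higher, and at 68.8 in the score-matched E14.5 cells and 121 (82.4 to 172) in the somatic-marker cells. Histone genes of this cluster are near-identical copies, so the counting of any one of them is uncertain. Across the lagging cells Hist1h2ap had a rank correlation of 0.55 with the S phase list, 0.06 with the G2 and mitosis list and 0.48 with 5 other linker and H2A histone genes, all cells of 1 library that share depth. By rank it stood at 807, 1259 and 914 CPM in the first 3 groups of 50, and at 1124 in ranks 151 to 300. It was therefore as high in the cells just outside the 150 as in them, and 168 in the lowest ranks.

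**Figure D4:**
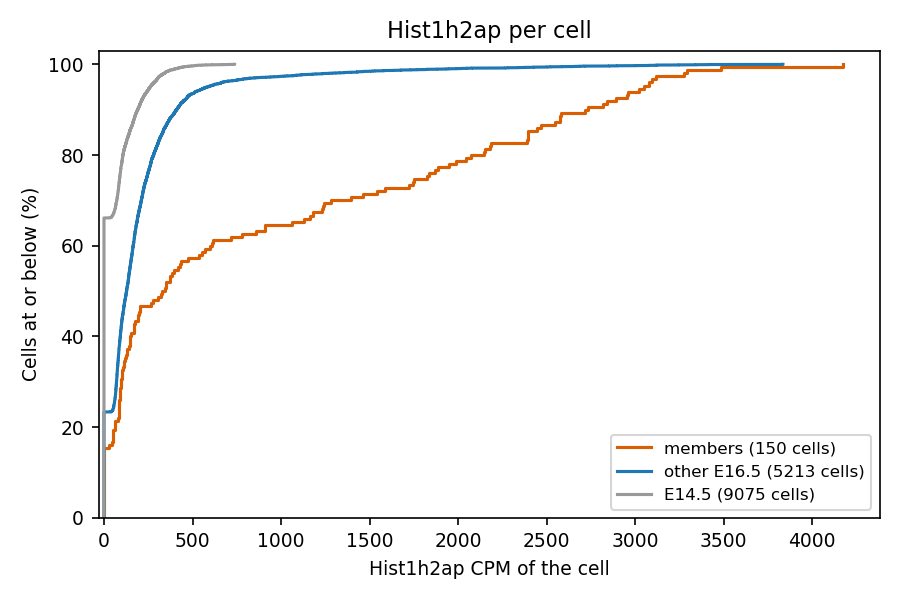
Share of cells at or below each level of Hist1h2ap (CPM) by group. The upper quartile of the lagging cells is 1807 CPM, while the highest E14.5 cell has 738.

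Among the other genes above both, Jund, an AP-1 transcription factor, stood at 216, 70.6 and 106 CPM in the lagging, other E16.5 and E14.5 cells, 3.07-fold and 2.04-fold higher. Against the score-matched E14.5 cells its ratio was 1.65 (1.43 to 1.92), so it was no longer 2-fold above both. It stood at 1380.3 CPM in the 18 somatic-marker cells. The remaining 5 were below the level fixed for naming and are named after their values were seen. Gstp1, a glutathione transferase, stood at 56.0 CPM (47.8 to 65.3), 8.97 and 6.98, and at 86.0 in the somatic-marker cells. Hmga1, a chromatin protein, stood at 57.7, 18.8 and 10.6 CPM and at 11.7 in the somatic-marker cells. Eno1, a glycolytic enolase, stood at 90.4, 28.2 and 34.2 CPM and at 501 in the somatic-marker cells, and Dynlt1a, a dynein light chain, at 58.1, 25.8 and 13.5 CPM. Gstp1, Eno1 and Dynlt1a have close copies in the genome, so their counts are uncertain, as are those of Gm10282, a predicted gene (58.1, 16.5 and 16.3 CPM). How far RNA of other cells raised Jund, Gstp1 and Eno1 was not tested. The 3 genes below both were Prdm9, Rad51ap2 (13.9, 81.7 and 28.8 CPM), and Trappc8, a vesicle tethering subunit (21.4, 60.6 and 45.4 CPM). With the score-matched E14.5 cells in place of all E14.5 cells, 0 genes were below both.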

How the data were processed

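Single-cell RNA was measured with 10x Genomics 3' chemistry (version 2 kit) in 3 libraries, per the labels' protocols. Cell Ranger 2.0.0, FastQC and the build mm10 are named in the submitters' processing notes; settings and filters were not given in the sources used here. For 14133 genes in 19144 cells the authors deposited values on a natural log scale, the log of 1 plus UMIs scaled to a total of 10000 in each cell. Undoing the log gave whole UMIs (within 0.01) for 100.0% of 68606039 non-zero values, so sums of UMIs were used.

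Cells were ranked by score, and groups were compared by summed UMIs as CPM, with exact 95% intervals for counting error. Genes counted as different at 2-fold with 50 CPM or more in the higher group, and in lists with 10 or more counts. The members and the 32 gene lists were chosen with earlier results of these data known. The named genes were the 15 of largest ratio in each direction at 100 CPM, up to 10 against the E14.5 cells or against both groups, and in each list the 4 of highest level and the 1 of largest ratio; those described were taken from them. Mitochondrial, ribosomal and haemoglobin genes, and Gm and Rik symbols, were left out. Genes of a list named beyond these, such as Sox2, Nanog and Zglp1, were chosen after their values were seen. Doublets were sought with Scrublet in scanpy 1.11.5 and not removed. The ratios and their intervals were checked on simulated data. numpy 2.4.6, scipy 1.17.1, pandas 2.3.3 and matplotlib 3.10.9 were used. Alternatives changed the number of cells, the score, depth, scaling, the minimum level and the comparison cells.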

Additional observations from a re-analysis of the deposited data

How the results depend on the processing

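No paired analysis was possible because each stage was 1 library and no replicate numbers were shared. Of 136 settings of the 7 counts and shares, 109 stayed within 1.5 times (or within the spread between cells for the share) and 27 moved, so counts depended on the number of cells and on the minimum level. Of the ratios of named genes 5093 stayed within 1.5 times, 725 moved further and 7 turned; 217 moved with 300 cells, 165 with 75 and 117 against score-matched cells, so the printed folds depend on the number of cells. With 75 cells, 42 genes were lower than in the E14.5 cells, 17 were above both and 49 below both, and the median early share was 89.3%. With 300 cells, 159 genes were lower than in the other E16.5 cells and 0 were below both, and the share was 83.6%. At a minimum of 20 CPM the counts were 782 higher and 677 lower than in the other E16.5 cells, 47 higher and 23 lower than in the E14.5 cells, and 12 above and 18 below both. At 100 CPM they were 186 and 145, 17 and 1, and 2 and 1. The mean over cells of CPM gave 11 lower than in the E14.5 cells and 11 below both, and the score at 5000 UMIs gave 1 below both. With early and late sets of at least 8-fold or 100 CPM, the share was 96.3% or 92.7%. The 3 added alternatives were chosen after seeing the data. With 1033 other E16.5 cells of 15462 or more UMIs, 6 genes were below both; with score-matched E14.5 cells, 2 were lower than in the E14.5 cells and 0 below both. Directions turned for Lhx8 (0.529 of the E14.5 level with 75 cells, 1.01 times the other E16.5 cells with 300), Rad51ap2 (1.06 times the E14.5 level with 300, 1.68 against score-matched cells), and, against score-matched cells, Pcdh17 (3.28) and Prdm9 (1.20). S100a8 turned to 1.47 times the deep E16.5 cells, and the blood list median to 0.07 on the log2 scale. The red cell list median turned to 7.50 against the other E16.5 cells and 6.37 against the E14.5 cells with 300 cells. Leaving out 1 scoring gene at a time chose 138 to 146 of the same 150 cells. Median-of-ratios scaling moved log2 differences by -0.12 against the other E16.5 cells and 0.01 against the E14.5 cells.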

Other observations

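The X chromosome took a median of 4.25% of UMIs in the lagging cells, 4.16% in the other E16.5 cells and 4.18% in the E14.5 cells, over 496 X-linked genes, and 3.34% in the E12.5 cells. Eif2s3y, a Y-linked gene, had 1230 UMIs (9.79 CPM) in the E12.5 cells and 0 in the lagging, other E16.5 and E14.5 cells. Whether cells with a Y chromosome lowered the E12.5 share was not tested. Xist, the RNA that silences an X chromosome, was found in 5 lagging cells with 5 UMIs (1.70 CPM, 0.551 to 3.96). It stood at 10.3 CPM in the other E16.5 cells and 20.1 in the E14.5 cells, and without the cells with 4 or more somatic markers at 6.15 (5.57 to 6.78) and 1.5 CPM (1.27 to 1.75). The interval of the lagging cells thus overlapped that of the E14.5 germ cells left after this removal and lay below that of the E16.5 cells.

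In the promoters of the early genes, CACGTG (an E-box, the same on both strands) was found in 18 of 171 (10.5%), in 6 of 85 late genes (7.06%) and in 6.05% of all 27025 promoters. CNCCTCAG on either strand was found in 12 early (7.02%) and 2 late promoters (2.35%) and in 6.39% of all. Among other lists, 3 of 22 genes of the piRNA pathway were at least 2-fold higher than in the other E16.5 cells and 3 lower (13.6% each, median -0.44), and 2 of 18 Polycomb genes were higher (11.1%) and none lower (median 0.08). Over all genes 19.3% were higher and 15.5% lower, so both lists were near or below those shares. In the Rhox and Xlr list 7 of 15 were higher and none lower (median 0.89).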
